A study of Rattus norvegicus with 9 samples.

Results

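The islet hormone genes of INS-1E cells, a rat insulinoma line that makes and secretes insulin, were followed through exposure to palmitic acid (PA) with and without the anthocyanin cyanidin-3-O-glucoside (C3G). The genes were chosen by symbol: the insulin genes Ins1 and Ins2, Iapp, Gcg, Sst, Ppy, Pyy and Npy, 8 in all. Of these, 6 are named in the table of 20645 genes used here, and 5 of the 6 had a mean of at least 1 FPKM (fragment counts relative to the gene's length and the library's size) over all libraries and were tested. Pyy was below that level, and Sst and Ppy were not analysed here. RNA-seq was done on 9 libraries of polyadenylated RNA in 3 groups of 3. The BSA group received fatty acid-free bovine serum albumin alone, the PA group 0.5 mM palmitic acid, and the PA + C3G group 0.5 mM palmitic acid together with 50 µM C3G, each for 24 h, with the doses taken from the study's methods. All groups are the same tumor-derived line, and the labels do not say whether replicates were separate cultures. The study's methods describe its experiments in general as done in biological triplicate and do not say how the RNA-seq replicates were cultured, so that p-values measure the spread between these libraries.

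In the islet, each of these hormones marks a cell type. Beta cells make insulin together with the amyloid peptide IAPP, alpha cells glucagon, delta cells somatostatin, and PP cells pancreatic polypeptide, while peptide YY and neuropeptide Y are relatives of pancreatic polypeptide. All are made as precursors that enter the secretory pathway, are cut by prohormone convertases and are stored in granules. Rats and mice carry a pair of insulin genes, both of which encode functional insulin, whereas most mammals carry a single one, the counterpart of Ins2. Ins1 arose by retroposition and carried part of the upstream region of its parent gene with it.

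The 250 bases upstream of the start site are shown for Ins1, Ins2 and Iapp, since the insulin genes share most of this region and yet differed in their response, and Iapp is a beta cell hormone gene with a dissimilar one. RefSeq upstream sequences on build GRCr8 matched all 6 genes found in the table. Capitals mark exact matches, on either strand, to 5 short motifs known from the rat insulin promoters: the E element GCCATCTG, which bHLH factors such as Neurod1 bind, the A boxes CTAATTA and TTAATG, where homeodomain factors such as Pdx1 bind, TGACG (the core of a CRE, where CREB binds) and the TATA box TATAAA.
Ins1 (chr1:261185869-261186118, plus strand): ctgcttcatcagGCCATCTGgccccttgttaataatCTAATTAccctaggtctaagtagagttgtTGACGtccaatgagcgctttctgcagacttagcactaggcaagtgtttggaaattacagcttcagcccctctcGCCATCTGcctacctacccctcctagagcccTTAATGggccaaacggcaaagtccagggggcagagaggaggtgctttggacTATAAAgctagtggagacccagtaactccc
Ins2 (chr1:207273806-207274055, minus strand): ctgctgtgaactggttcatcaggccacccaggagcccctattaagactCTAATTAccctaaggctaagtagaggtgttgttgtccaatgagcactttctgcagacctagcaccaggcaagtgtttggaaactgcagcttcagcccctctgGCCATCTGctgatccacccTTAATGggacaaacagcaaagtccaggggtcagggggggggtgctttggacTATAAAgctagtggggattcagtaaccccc
Iapp (chr4:176967847-176968096, plus strand): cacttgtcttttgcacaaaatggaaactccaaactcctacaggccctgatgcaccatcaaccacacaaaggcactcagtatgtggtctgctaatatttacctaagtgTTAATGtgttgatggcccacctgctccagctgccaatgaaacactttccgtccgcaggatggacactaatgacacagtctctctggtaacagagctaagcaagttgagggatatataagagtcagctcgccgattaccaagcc

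The upstream regions of Ins1 and Ins2 were 78.2% identical in a global alignment, with 205 identical positions, 33 mismatches and 24 gapped positions. The other pairs among the 6 genes were between 41.2% and 49.3% identical. Ins1 held the E element at 2 places, from −238 to −231 and from −112 to −105 counted back from the start site, and Ins2 held it once, from −100 to −93. TTAATG and TATAAA lay at the same distance in both genes, from −81 to −76 and from −30 to −25. TGACG was found in the Ins1 window, from −185 to −181, and not in that of Ins2. Of 33469 upstream regions of the same length, 0.998% held GCCATCTG, 1.62% CTAATTA, 8.4% TTAATG, 18.2% TGACG and 12.9% TATAAA. No match overlapped another in these windows, and a match describes the letters and shows no binding.

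Library totals of the deposited estimated counts ran from 45559993 to 66730721. Low counts piled up at multiples of 4 (4044 values at 4, against 2040 at 3 and 1276 at 5), so the fragments behind a value may be fewer than the count. Of 12958 genes tested with edgeR's quasi-likelihood test, 25.2% were lower and 25.8% higher in PA than in BSA at a Benjamini-Hochberg adjusted p-value under 0.05. For PA + C3G versus PA, 10.2% were lower and 11.1% higher, and for PA + C3G versus BSA 17.9% were lower and 19.0% higher. How many calls pointed each way varied with the normalization. When libraries were set to a common FPKM total (TPM scaling), the calls for PA + C3G versus PA went from 1436 up and 1316 down to 775 up and 2525 down. For PA + C3G versus BSA they went from 2462 up and 2321 down to 1891 up and 3038 down. Apart from the duct keratin Krt7 and the factors Sox9 and Etv1, markers of acinar cells, delta cells, mesenchyme, endothelium and blood cells were near 0. The acinar list, 3 of 9 genes in the table, summed to at most 0.486 FPKM in any library. The delta cell reading rests on 1 of 3 listed genes. That for mesenchyme, endothelium and blood cells rests on 5 of 9.

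Ins1 (ENSRNOG00000012052, chromosome 1, 272799784 to 272800347, plus strand, on the unnamed build of the table) was the most abundant gene by FPKM in every BSA and PA + C3G library. It was at 27615, 24631 and 27703 FPKM in BSA replicates 1, 2 and 3. In PA it was at 14342, 12999 and 13892 FPKM, and in PA + C3G at 36222, 29172 and 30612 FPKM. The groups did not overlap, with every PA library below and every PA + C3G library above the BSA libraries. Relative to BSA, PA left 51.6% of the mean Ins1 level, a log2 fold change of −0.93 (95% interval −1.11 to −0.75). PA + C3G stood at 120% of the BSA mean. The log2 fold change of PA + C3G over BSA was 0.33 (95% interval 0.15 to 0.50, edgeR adjusted p = 0.0102), but 0.26 with limma on log2(FPKM + 1), where the adjusted p of 0.0665 missed the threshold.

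Ins2 (ENSRNOG00000020405, chromosome 1, 215856971 to 215858034, minus strand) was at 13167, 15321 and 12847 FPKM in BSA replicates 1, 2 and 3. It was at 1748, 2100 and 1765 FPKM in PA and at 6364, 7700 and 6959 FPKM in PA + C3G. Here too the groups did not overlap, but the PA + C3G libraries lay between the other groups. Ins2 fell to 13.6% of its BSA mean with PA, a log2 fold change of −2.86 (SE 0.10, edgeR adjusted p = 4.92e-08). Among the 6451 tested genes whose fitted change was below 0 in that comparison, it ranked 24 by p-value and 34 by size. With PA + C3G it was at 50.9% of the BSA mean, so 43.1% of the drop was regained. In rank by FPKM within a library, Ins2 went from 3 or 4 with BSA to between 17 and 21 with PA, and was at 7 or 8 with PA + C3G.

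The insulin genes, alike over most of the upstream bases shown, differed in how far they moved. As the authors' counting could have divided reads between these close paralogs, their sum was also tested, which does not depend on that division. Ins1 and Ins2 together were at 40782, 39952 and 40550 FPKM with BSA, at 16091, 15098 and 15656 FPKM with PA, and at 42586, 36872 and 37571 FPKM with PA + C3G. The summed counts fell with PA by a log2 fold change of −1.35 (SE 0.05, edgeR adjusted p = 6.48e-08) and rose with PA + C3G over PA by 1.36 (SE 0.05, edgeR adjusted p = 2.37e-06). For PA + C3G versus BSA the log2 difference of the sum was 0.01 (95% interval −0.11 to 0.12, edgeR adjusted p = 0.906), and the libraries of both groups overlapped. Insulin took between 7.38% and 7.70% of the FPKM sum of a library with BSA, between 2.92% and 3.13% with PA and between 6.94% and 7.90% with PA + C3G.

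**Figure D1:**
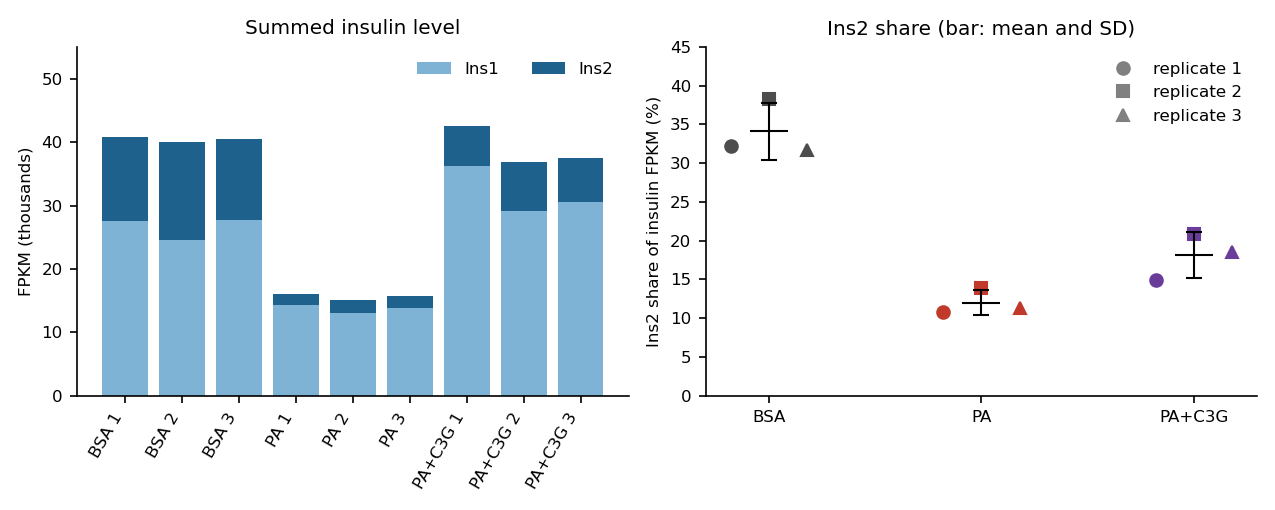
Left, FPKM of Ins1 and Ins2 stacked for each of the 9 libraries on a linear axis from 0. Right, the share of Ins2 in the insulin FPKM in percent, with each point a library (circle, square and triangle for replicates 1, 2 and 3) and bars for mean and SD (n = 3). The stacks of PA + C3G, between 36872 and 42586 FPKM, span those of BSA, between 39952 and 40782 FPKM, whereas their Ins2 share lies between 14.9% and 20.9%, below the BSA libraries at 31.7% or more.

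As counted, the make-up of the insulin message did not follow its sum. Unlike the sum, the make-up depends on how the authors' counting divided reads between Ins1 and Ins2, which was not tested. Ins2 made up 32.3%, 38.3% and 31.7% of the insulin FPKM in BSA replicates 1, 2 and 3. The share was 10.9%, 13.9% and 11.3% with PA, and 14.9%, 20.9% and 18.5% with PA + C3G. The 3 ranges did not overlap. On the log2 scale, which does not depend on how a library is scaled, the ratio of Ins2 to Ins1 FPKM differed by −1.93 between PA and BSA (SE 0.19), by 0.69 between PA + C3G and PA (SE 0.21) and by −1.24 between PA + C3G and BSA (SE 0.22). Each of these 3 comparisons gave p = 0.1 in a two-sided exact permutation test, the smallest value that 3 libraries against 3 allow, so none could pass 0.05.

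**Figure D2:**
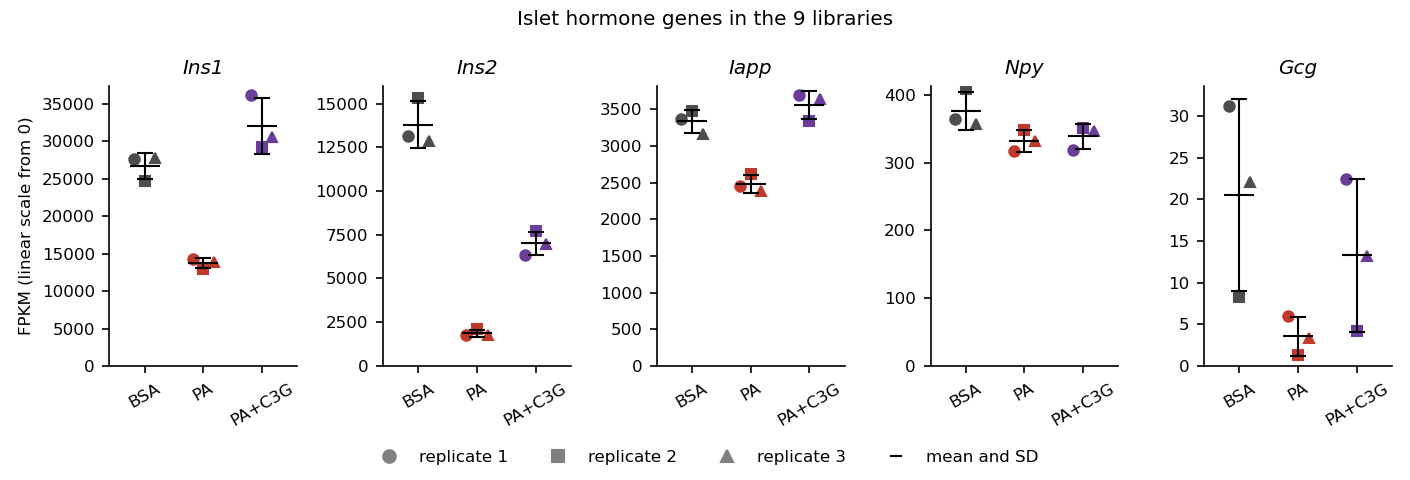
FPKM of the 5 tested genes in the 9 libraries, each panel on its own linear axis from 0, with a marker shape for each replicate number and bars for the mean and SD (n = 3). Ins1, Ins2 and Iapp show PA libraries below all others, Npy spans only 317 to 409 FPKM, and the 3 libraries of each group spread widest for Gcg.

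Iapp (ENSRNOG00000012417, chromosome 4, 176510696 to 176516083, plus strand) encodes the amyloid polypeptide that beta cells release together with insulin. Its level was 3366, 3479 and 3171 FPKM in BSA replicates 1, 2 and 3, then 2450, 2626 and 2390 FPKM with PA, and 3696, 3344 and 3643 FPKM with PA + C3G. The PA libraries lay below all others, and those of BSA and PA + C3G overlapped. Iapp fell with PA by a log2 fold change of −0.40 (SE 0.06, edgeR adjusted p = 0.000215) and rose with PA + C3G over PA by 0.55 (SE 0.06, edgeR adjusted p = 0.000278). The difference between PA + C3G and BSA, 0.15 on the log2 scale (edgeR adjusted p = 0.0519), did not pass the threshold, but did in DESeq2 (adjusted p = 0.0236) and without PA + C3G replicate 2 (edgeR adjusted p = 0.0306). It was smaller, at 0.09, under TPM scaling and in limma on log2(FPKM + 1), with adjusted p-values of 0.175 and 0.264. Relative to Iapp in the same library, insulin FPKM was between 11.5 and 12.8 times as high with BSA, between 5.75 and 6.57 times with PA, and between 10.3 and 11.5 times with PA + C3G. Iapp lies inside the span of a gene on the opposite strand. Strand-specific libraries were made, but whether the counting used strand is not given in the sources used here.

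Npy (ENSRNOG00000046449, chromosome 4, 79573998 to 79581208, plus strand) encodes neuropeptide Y, a neuropeptide that is also known from rodent beta cells. Its FPKM was 364, 409 and 357 in BSA replicates 1, 2 and 3, then 317, 348 and 331 with PA, and 318, 351 and 347 with PA + C3G. Both PA-treated groups lay below the BSA libraries and overlapped each other. The log2 fold change of PA over BSA was −0.16 (95% interval −0.30 to −0.01 before any adjustment), and its edgeR adjusted p-value of 0.0639 missed the threshold. Other tools put it past the threshold, with an adjusted p-value of 0.0283 in DESeq2 and 0.0407 in limma on log2(FPKM + 1). For PA + C3G versus PA the log2 difference was 0.06 (95% interval −0.08 to 0.21, edgeR adjusted p = 0.522) and turned to −0.02 under TPM scaling. A second gene model on the same strand, LOC100912228, lies just before Npy in the table and had nearly the same values (328, 291 and 297 FPKM on average with BSA, PA and PA + C3G), so reads may have been divided between them and the level of Npy is uncertain. With the counts of both summed, PA versus BSA gave −0.15 (edgeR adjusted p = 0.0605).

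Gcg (ENSRNOG00000005498, chromosome 3, 48442635 to 48451650, minus strand) encodes proglucagon, the precursor of the alpha cell hormone glucagon. It was expressed at a low level, with 31.2, 8.28 and 22.1 FPKM in BSA replicates 1, 2 and 3, 6.02, 1.35 and 3.35 FPKM with PA, and 22.5, 4.17 and 13.2 FPKM with PA + C3G. The PA libraries lay below the BSA libraries, whereas PA + C3G overlapped both groups. Gcg fell with PA by a log2 fold change of −2.50 (SE 0.71, edgeR adjusted p = 0.0149). This call was lost without BSA replicate 1 (−2.07, edgeR adjusted p = 0.0507) and without PA replicate 3 (−2.45, edgeR adjusted p = 0.0503). For PA + C3G versus PA the log2 difference was 1.93 (SE 0.70, edgeR adjusted p = 0.0814), which is about the size seen for Ins2 (1.94, SE 0.10) with a wider error, and for PA + C3G versus BSA it was −0.57 (SE 0.67, edgeR adjusted p = 0.552), with values from −1.19 without PA + C3G replicate 1 to −0.14 without BSA replicate 1. In these bulk libraries, fewer cells with Gcg and less Gcg per cell cannot be told apart.

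The libraries numbered 2 had the lowest Gcg and those numbered 1 the highest in all 3 groups. Between libraries of the same number, the log2 FPKM of Gcg differed by −2.37, −2.62 and −2.72 from BSA to PA for numbers 1, 2 and 3. From PA to PA + C3G it differed by 1.9, 1.63 and 1.98, and from BSA to PA + C3G by −0.47, −0.99 and −0.74. After this order had been seen, the replicate number was tested beside the group over all 12958 genes. Gcg differed by number (edgeR adjusted p = 0.00222), with replicate 2 below replicate 1 by 2.16 on the log2 scale, and so did Ins2 (edgeR adjusted p = 0.0294), with replicate 2 above replicate 1 by 0.26. Ins1, Npy and Iapp did not pass (edgeR adjusted p = 0.198, 0.265 and 0.820), and 0.37% of all genes tested passed. The labels do not say what the number stands for. With the number as a block in the fit, Gcg passed for PA + C3G versus PA (1.88, edgeR adjusted p = 0.000143). It also passed for PA + C3G versus BSA (−0.67, edgeR adjusted p = 0.00330).

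**Figure D3:**
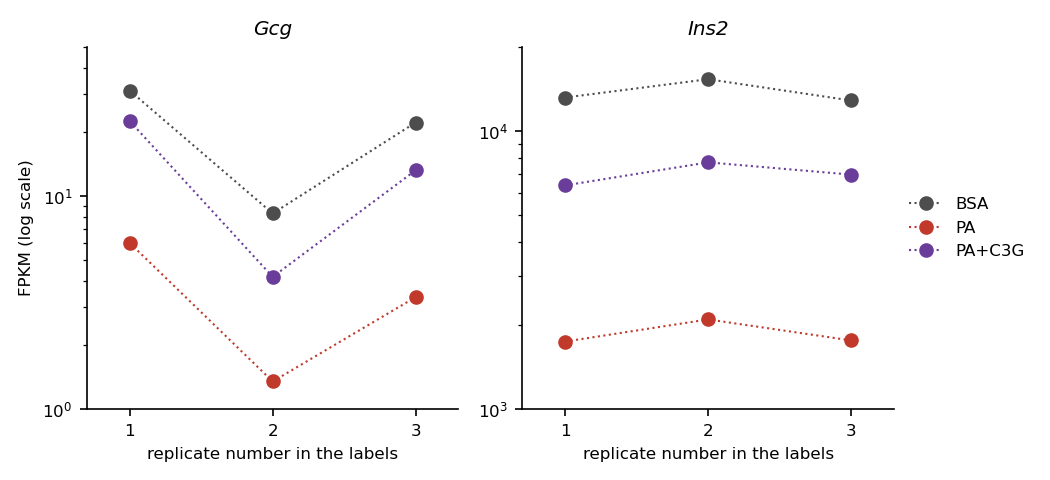
FPKM of Gcg and Ins2 on log axes against the replicate number in the labels, with dotted lines joining the 3 libraries of a group only to guide the eye. Gcg is lowest and Ins2 highest in the libraries numbered 2 of each group, and the order of the groups is the same at each number.

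Pyy (ENSRNOG00000020877, chromosome 10, 90047993 to 90049112, minus strand), whose product peptide YY is a gut hormone that islets also make, had 0 counts in all 3 BSA libraries, 0, 7 and 0 in PA and 8, 4 and 2 in PA + C3G. So few counts were not tested. Of the other alpha cell markers, Irx1 and Ttr were at 0.061 FPKM or less in every library.

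**Figure D4:**
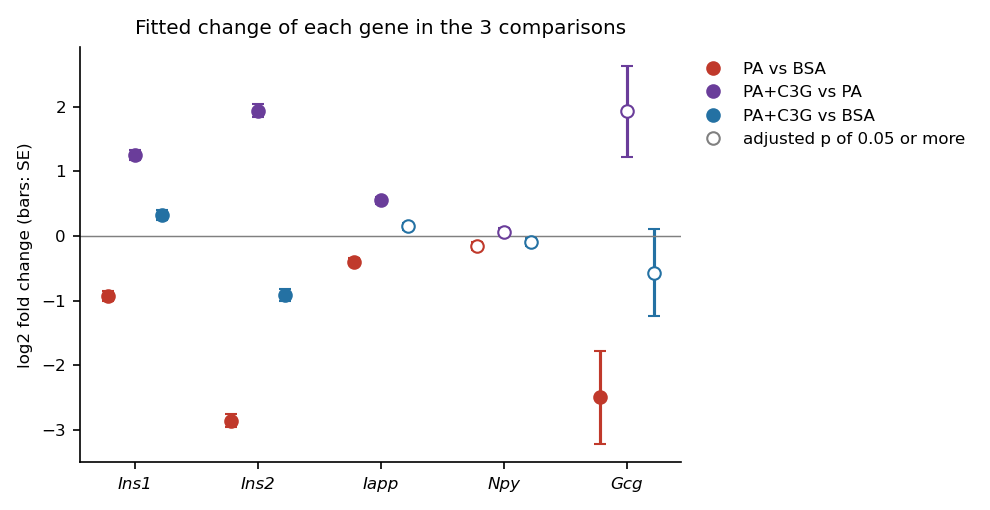
Fitted log2 fold change of the 5 tested genes in the 3 comparisons, with bars for the standard error and open circles where the edgeR adjusted p-value is 0.05 or more. Ins2 lies farther from 0 than Ins1 in each comparison, Ins1 and Ins2 lie on opposite sides of 0 in PA + C3G versus BSA, and the bars of Gcg are the longest.

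Counted together, 4 of the 5 tested hormone genes were lower in PA than in BSA (Ins1, Ins2, Iapp and Gcg), against 25.2% of all genes, and none was higher. In PA + C3G versus PA, 3 of 5 were higher (Ins1, Ins2 and Iapp), against 11.1%. In PA + C3G versus BSA, Ins1 was higher and Ins2 lower, where 19.0% of all genes were higher and 17.9% lower. A single gene of the 5 in each direction is near those shares. By the study's criterion for differentially expressed genes (fold change above 2 and unadjusted p-value under 0.05), Ins2 and Gcg were lower with PA, where 4.26% of all genes met it in that direction. Ins1, Ins2 and Gcg were higher in PA + C3G than in PA by the same criterion, against 0.702% of all genes. The PA libraries enter both comparisons.

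The genes most like each hormone gene were taken as those with the smallest root mean square difference over the 9 libraries, in log2 CPM (counts relative to library size) centered on each gene's mean. Nearest to Ins1 were Tmem255a (0.12), the cation channel gene Trpv1 (0.18) and Iqca1l (0.20). Ins2 was nearest to the replication licensing gene Cdc6 (0.20), the growth factor gene Tgfb2 (0.23) and the trefoil peptide gene Tff3 (0.24), whose level was 146 ± 15.6 FPKM with BSA, 24.3 ± 3.80 with PA and 69.0 ± 6.19 with PA + C3G (SD, n = 3). Iapp was nearest to the myosin light chain gene Myl6 (0.074) and to a pair of gene models for proSAAS, LOC108348172 (0.076) and Pcsk1n (0.078). For Npy the neighboring gene model LOC100912228 came first (0.013), followed by Ptprj (0.034) and Cep95 (0.038). No gene was close to Gcg, where Spp2 (0.64), Trpm5 (0.69) and U1 (0.74) came nearest. Ins1 was closer to Iapp (0.32) than to Ins2 (0.82). The measure is not scaled for how far a gene moves, so it reflects size of change as well as pattern. Around its own mean, the root mean square was 1.40 for Gcg, 1.20 for Ins2, 0.54 for Ins1, 0.24 for Iapp and 0.094 for Npy.

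Genes that work with the hormone genes were read from lists. Of 19 transcription factors known to act on the insulin genes, 17 were tested, and 10 were lower and none higher with PA, where 25.2% of all genes were lower and 25.8% higher. The median of the 17 log2 fold changes was −0.21 against 0.0030 over all genes. With PA + C3G over PA, 9 were higher and none lower, where 11.1% of all genes were higher and 10.2% lower, with a median of 0.16 against −0.00073. The same shares of all genes apply to the counts of the lists that follow. Mnx1 moved most of those named, from 65.0 ± 2.90 FPKM with BSA to 25.7 ± 2.91 with PA and 49.4 ± 6.74 with PA + C3G (SD, n = 3). Mafa, which binds the insulin promoters, fell from 381 ± 6.53 FPKM to 212 ± 30.1 and was at 313 ± 51.1 with PA + C3G (SD, n = 3). Isl1 and Nkx2-2 fell with PA and rose with C3G over PA, by 0.52 and 0.34 on the log2 scale.

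Of 11 genes for cutting and folding prohormones, 6 were higher and 4 lower with PA (25.8% and 25.2% of all genes), and 4 were higher and 1 lower with PA + C3G over PA (11.1% and 10.2% of all genes). Pcsk1, a convertase that cuts proinsulin, fell from 20.2 ± 1.66 FPKM with BSA to 6.45 ± 0.267 with PA and was at 12.5 ± 1.15 with PA + C3G (SD, n = 3), the same order of groups as for Ins2. Cpe, the carboxypeptidase that trims the cut ends, rose from 597 ± 19.2 FPKM to 882 ± 38.1 with PA and was at 923 ± 27.2 with PA + C3G (SD, n = 3). Pcsk1n, which encodes the convertase inhibitor proSAAS, fell with PA by a log2 fold change of −0.36 and rose over PA by 0.55, but it shares its reads uncertainly with LOC108348172. Of 9 granins and granule proteins, 7 were higher and 2 lower with PA, the latter near the 25.2% of all genes, and 6 were higher and none lower with PA + C3G over PA. Chgb, a granin that is stored with insulin, stood at 1859 ± 313 FPKM with BSA, 4393 ± 375 with PA and 7172 ± 927 with PA + C3G (SD, n = 3), where Ins2 stood at 7008 ± 669. Chga fell with PA by −0.17 and was higher than in BSA with PA + C3G, by 0.37 on the log2 scale (edgeR adjusted p = 0.000159).

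Of 17 receptor genes for these hormones, including the modifying RAMPs, 9 were tested, of which 5 were higher and 1 lower with PA, and 3 were higher and 1 lower with PA + C3G over PA. The single receptor gene that was lower in the latter comparison is near the share of all genes (10.2%). Npy1r, a receptor of neuropeptide Y and peptide YY, rose from 1.29 ± 0.274 FPKM with BSA to 5.58 ± 1.12 with PA and was at 4.10 ± 1.08 with PA + C3G (SD, n = 3). Insr, the insulin receptor, rose from 1.29 ± 0.138 to 2.13 ± 0.169 FPKM with PA and was at 1.49 ± 0.102 with PA + C3G (SD, n = 3). Igf1r, its relative, moved the other way, with log2 fold changes of −0.45 for PA over BSA and 0.53 for PA + C3G over PA. The somatostatin receptor gene Sstr3 rose with PA by 0.61 and with C3G over PA by 0.24, and Glp1r rose with C3G over PA by 0.29. Of 25 other peptide hormone genes, 8 were tested, and 4 were higher and 2 lower with PA and 3 higher and none lower with PA + C3G over PA. The 2 of 8 that were lower with PA are close to the 25.2% of all genes. Gast, which encodes the stomach hormone gastrin, fell from 4.41 ± 0.810 FPKM to 0.916 ± 0.551 with PA and was at 4.92 ± 1.48 with PA + C3G (SD, n = 3). Igf2 fell with PA by −0.27, and Cartpt rose with PA by 2.59 on the log2 scale from a level of 0.227 ± 0.142 FPKM (SD, n = 3).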

How the data were processed

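RNA-seq of 9 INS-1E libraries, 3 per group, was taken from a single deposited table with FPKM and counts per gene. Per the labels, cutadapt 1.9, HISAT2 2.0.4, StringTie 1.3.4d, edgeR and DESeq2 are named in the submitters' processing notes, without their roles, and the genome build is not given in the sources used here. The authors deposited estimated counts without normalization, as whole numbers with library totals from 45559993 to 66730721. The authors also deposited FPKM, scaled to gene length and library size. Genes that averaged 1 FPKM or more were tested on their counts in 1 fit over all libraries by edgeR 4.0.16 (R 4.3.3, TMM, quasi-likelihood, Benjamini-Hochberg over 12958 genes), after a check on simulated data. Ratios were compared by exact permutation test. Alternatives used DESeq2 1.42.0, limma 3.58.1 with pseudocounts of 1 and 0.1, other scalings, filters and designs, and libraries left out in turn. The replicate number term and the sum of Npy with its neighboring gene model were added after the data were seen. The hormone genes and gene lists were chosen with earlier results of these data known. Genes named are all hormone genes, the 3 nearest genes to each, and up to 3 per list by p-value in each of PA versus BSA and PA + C3G versus PA, with examples given here. Some genes of these lists are not reported here. Upstream sequences are from RefSeq (GRCr8).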

Additional observations from a re-analysis of the deposited data

How the results depend on the processing

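Over all alternatives, 355 recomputed values kept their direction and their side of the threshold or lay close to the value reported. Of the others, 8 changed direction, 12 came to pass the threshold, 4 ceased to pass it and 2 counts of called genes moved. These values use the same libraries and include counts of called genes and ratios, so they are not independent. The calls for Ins1, Ins2, Iapp and the insulin sum in PA versus BSA and in PA + C3G versus PA, and that for Ins2 in PA + C3G versus BSA, held under every alternative run, as did the direction of the Ins2 to Ins1 ratio. For Ins1 in PA + C3G versus BSA, the log2 difference was 0.26 with limma at either pseudocount (adjusted p = 0.0665 and 0.0604), which left 1 hormone gene called in that comparison. Npy in PA versus BSA passed at −0.16 in DESeq2, −0.20 when the scaling left out the hormone genes, −0.18 in limma at both pseudocounts, and without BSA replicate 3 or PA replicate 2 (both −0.20), while the fits without a library ranged from −0.20 to −0.10. Iapp in PA + C3G versus BSA passed at 0.15 in DESeq2 and, among fits that ranged from 0.11 to 0.19 without a library, without PA + C3G replicate 2. It was lowest, at 0.09, under both TPM scalings and in limma, where it did not pass. Without a library, Gcg ranged from −3.12 to −2.07 in PA versus BSA and from 1.31 to 2.54 in PA + C3G versus PA, where it passed without PA + C3G replicate 2 (2.35, edgeR adjusted p = 0.0348). The near-zero difference of the insulin sum between PA + C3G and BSA changed sign, to −0.051 under TPM scaling, −0.054 when that scaling left out the hormone genes and −0.054 in limma at both pseudocounts, to −0.00058 with a mean FPKM of at least 5, and to between −0.067 and 0.041 without a library. Npy in PA + C3G versus PA turned to −0.024 under TPM scaling. The cause of these shifts was not tested.

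Groups share replicate numbers. Correlations of the deviations between same-numbered libraries, across genes, lay between −0.09 and 0.08 for all 9 pairs. Between libraries of different number in different groups they lay between −0.07 and 0.09. As these ranges overlap, the check cannot show whether the numbers mark pairs. The main fit did not use the number. A correlation over all genes cannot show whether a single gene, such as Gcg, follows the number. Of the 9 libraries, 5 correlated best with one of their own number. With a replicate block, 6843, 3118 and 5058 genes passed in PA versus BSA, PA + C3G versus PA and PA + C3G versus BSA. Without it, 6614, 2752 and 4783 passed. With this block, Gcg was at 1.88 in PA + C3G versus PA (edgeR adjusted p = 0.000143) and −0.67 in PA + C3G versus BSA (edgeR adjusted p = 0.00330), and Npy at −0.15 in PA versus BSA (edgeR adjusted p = 0.0116), each past the threshold. It changed no other call on the hormone genes. Gcg rests on 98 to 2252 estimated counts per library, and dividing all counts by 4 left its SE in PA versus BSA at 0.695, against 0.713.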

Other observations

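Gcg was 1 of 48 genes that differed by replicate number beside the group. Of these, 41 took the same order in all 3 groups with number 3 in the middle, 26 of them highest in the libraries numbered 1, as for Gcg, and 15 highest in those numbered 2. Among the former was Fn1, the gene of the matrix protein fibronectin, with replicate 2 below replicate 1 by 1.16 on the log2 scale (edgeR adjusted p = 0.000123). Among the latter was Ucn3, a peptide of mature beta cells, with replicate 2 above replicate 1 by 1.04 (edgeR adjusted p = 0.00278). These genes were looked at after the order of Gcg had been seen. They were also selected for a difference by number in these same libraries. A shared order across the groups is largely given by that selection and is no separate support. What the numbers share was not tested.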
